A study of Homo sapiens with 6 samples.

Results

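The transcripts described here are those of 36 genes of the endoplasmic reticulum (ER), out of 57820 genes in the deposited tables. They were chosen by name for their role: the KDEL receptors (3 genes), ER chaperones and their cofactors (11), protein disulfide isomerases (4), ER-associated degradation (ERAD) factors (7), the sensors of the unfolded protein response (3), transcription factors (4) and targets of the integrated stress response (4). All 36 were found in the tables by name. RNA-seq was performed on untreated AID-DIvA cells (AID-DivA in the sample labels), with 3 WT and 3 ARID1A-KO samples, numbered 3, 4 and 5 in each genotype. AID-DIvA is a line derived from the U2OS osteosarcoma cell line. Cells of both genotypes carry the restriction enzyme AsiSI fused so that 4-hydroxytamoxifen brings it into the nucleus and auxin leads to its degradation, and neither agent was given to these samples. ARID1A, a subunit of the SWI/SNF chromatin remodeling complexes, was knocked out with a Cas9 ribonucleoprotein and a pair of guide RNAs, followed by cloning. How many clones were sequenced is not stated in the sources used here, so a property of a clone and the loss of ARID1A cannot be told apart.

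Proteins that enter the ER are folded there by chaperones and by enzymes that form disulfide bonds, and those that fail to fold are sent back to the cytosol and degraded by ERAD. Many soluble ER proteins end in the amino acid sequence KDEL or a close variant, and KDEL receptors retrieve them from the Golgi by retrograde transport. When unfolded proteins build up, the sensors IRE1 (gene ERN1), PERK (EIF2AK3) and ATF6 signal to the nucleus. IRE1 leads to splicing of the XBP1 transcript, ATF6 is cleaved to an active transcription factor, and PERK phosphorylates a translation initiation factor, which favours translation of ATF4. Other kinases reach ATF4 as well, and this shared branch is called the integrated stress response.

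Counts on the reverse strand came to between 54512105 and 84088708 per sample. ARID1A itself had 173 ± 6.67 counts normalized to library size (CPM, mean ± SD, n = 3) in WT and 25.9 ± 1.38 CPM in ARID1A-KO samples, a log2 fold change of -2.74 (SE of 0.07 and adjusted p = 9.66e-08). Of 9 markers of osteosarcoma or mesenchymal cells, 7 had at least 1 TPM (a transcript level per length of the gene) in every sample, with sums of 3165 to 3461 TPM in WT and 4335 to 4802 TPM in ARID1A-KO samples. COL1A2 and TWIST1 were under that level in at least 1 sample. Of 5 epithelial markers, EPCAM alone reached it in every sample (sum over the list 10.1 to 13.96 TPM in WT and 13.3 to 13.95 TPM in ARID1A-KO samples). No blood marker of 4 (1.29 to 2.32 and 0.480 to 0.882 TPM) and no endothelial marker of the 2 matched did so (0.8004 to 1.18 and 1.07 to 1.16 TPM). Throughout, a gene is called higher or lower in ARID1A-KO cells at an adjusted p under 0.05 from edgeR's quasi-likelihood test over all 19599 genes with enough counts. The labels number the replicates and do not say how they were grown, so the p-values measure the spread between these samples. In bulk RNA, a change in all cells and a change in some of them cannot be told apart.

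Of the 36 genes, 35 had enough counts to be tested, and 14 were called higher in ARID1A-KO cells (40.0% of those tested). Over all genes, 17.8% were called higher. Called lower were 3 members (8.57%), against 18.4% of all genes. Together 17 members were called (48.6%), against 36.2% of all genes. The CPM of the genotypes did not overlap for 12 members that were higher and 4 that were lower in ARID1A-KO cells, 16 of those tested (45.7%). Over all genes this share was 49.5%, with 24.8% in each direction. The median log2 fold change of the tested members was 0.11, compared with 0.0066 for all genes tested, and their values ran from -0.60 for DNAJC3 to 1.19 for DDIT3. The count of 14 fell when some samples were left out: 6 members were called higher without WT replicate 3, and 7 without ARID1A-KO replicate 3 or ARID1A-KO replicate 4. Calls over all genes fell in these fits as well, from 3483 higher to 2654, 2839 and 2538 in the same order. The part of the smaller number of samples was not tested. Of the 3 called lower, 1 was called without WT replicate 3 and 1 without ARID1A-KO replicate 4. DDIT3, EDEM1, ERN1, KDELR3 and SDF2L1 were called higher in the main analysis and at every one of 15 alternative settings.

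**Figure D1:**
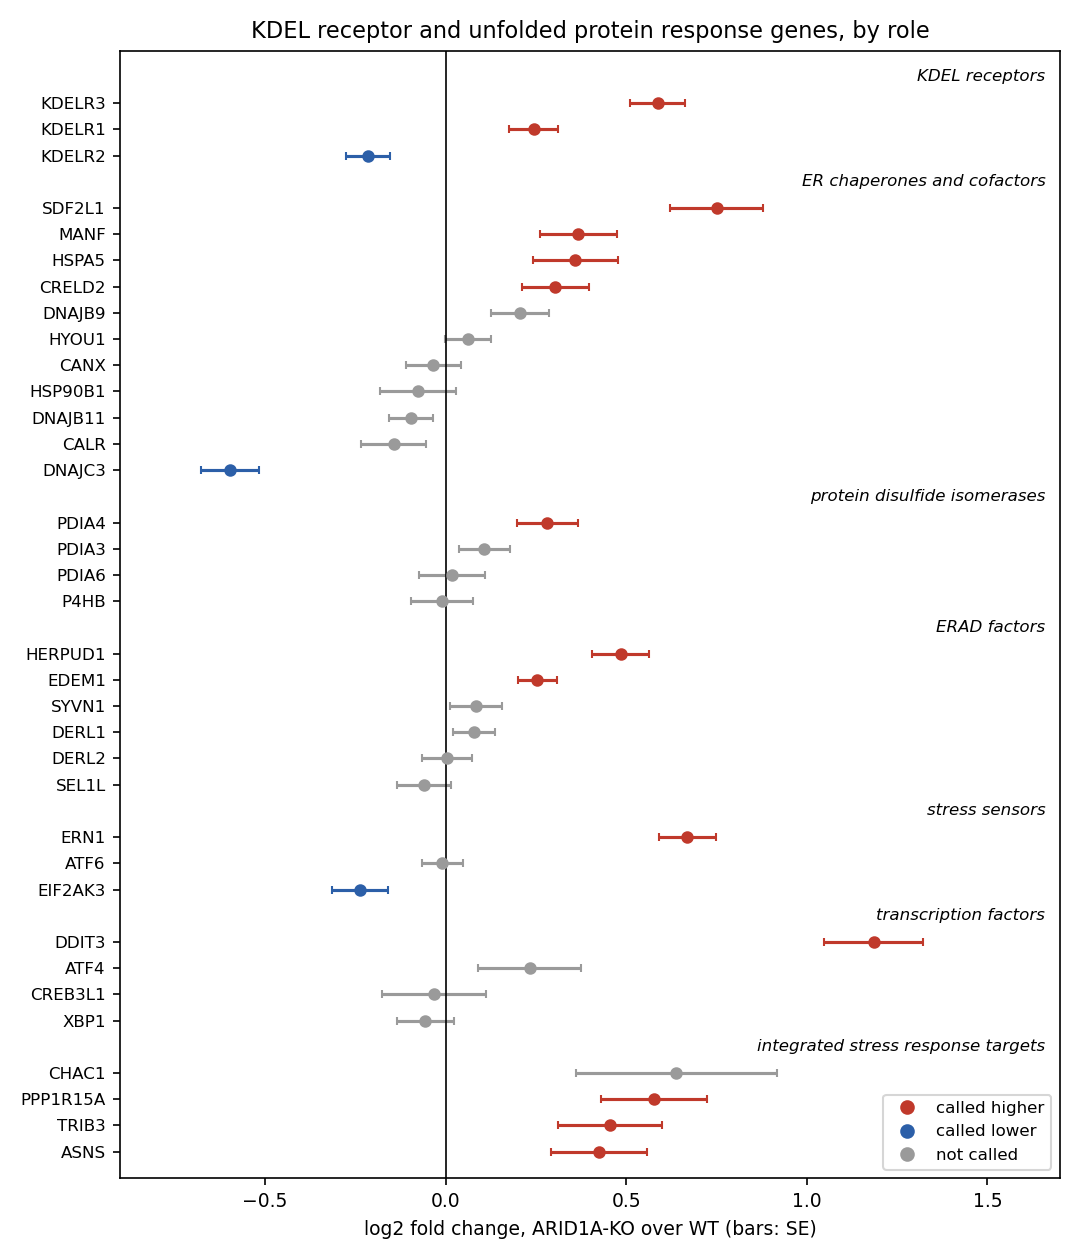
Log2 fold change of each tested member in ARID1A-KO over WT samples (x axis), with bars of 1 SE and genes grouped by role. Red points were called higher, blue points lower and grey points were not called. DDIT3 lies farthest to the right at 1.19 and DNAJC3 farthest to the left at -0.60.

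Genes of the unfolded protein response carry known short elements upstream of their start. Promoters of RefSeq genes, 250 bases before to 50 bases after the start, were therefore searched on both strands for the ER stress response element (ERSE, CCAAT and CCACG with 9 bases between them), its second form (ERSE-II, ATTGG and CCACG with 1 base between them), the unfolded protein response element (UPRE, TGACGTGG), the C/EBP-ATF response element (CARE, TGATGCAA) and the AsiSI site (GCGATCGC). ERSE, ERSE-II and UPRE all hold the letters CCACG on either strand, so that their matches can overlap. Of 35116 promoters in the RefSeq table (GRCh38.p14), the first listed for each gene name was used, which left 27305. Other starts of the same gene were not searched. Among the promoters used, ERSE was found in 0.0806%, ERSE-II in 0.0549%, UPRE in 0.795%, CARE in 0.923% and the AsiSI site in 0.205%. A promoter was given for 32 members. ERSE was present in the promoters of 6 of them (HSPA5, HSP90B1, CALR, CANX, CRELD2 and XBP1) and ERSE-II in 3 others (HYOU1, SDF2L1 and HERPUD1). UPRE was found in KDELR3 and HYOU1, CARE in HERPUD1 and CHAC1, and the AsiSI site in KDELR3. Only the exact letters given above were searched, so variant forms of an element were not counted. The ASNS promoter, for example, holds TGATGAAA, which differs from the CARE letters at 1 base. Such a match describes the letters and does not show that a factor binds there. KDELR2, PDIA3, DERL1 and DERL3 had no promoter in the table.

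The sequences around these elements are shown because the members that hold one divide into called and uncalled genes. They run 5′ to 3′ on the strand of the gene, with the element in capitals, and their positions in GRCh37 come from exact matches of the RefSeq promoters. The members called higher with ERSE are HSPA5 (chr9:128003655-128003703, minus strand) and CRELD2 (chr22:50312187-50312235, plus strand), and with ERSE-II SDF2L1 (chr22:21996388-21996428, plus strand) and HERPUD1 (chr16:56965922-56965962, plus strand).
HSPA5 ERSE: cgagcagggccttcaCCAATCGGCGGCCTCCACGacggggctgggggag
CRELD2 ERSE: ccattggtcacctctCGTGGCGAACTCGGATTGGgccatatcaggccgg
SDF2L1 ERSE-II: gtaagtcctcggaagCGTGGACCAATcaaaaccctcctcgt
HERPUD1 ERSE-II: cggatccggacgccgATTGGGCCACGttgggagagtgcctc
Members with an element that were not called are HSP90B1 (chr12:104323979-104324027, plus strand), CALR (chr19:13049183-13049231, plus strand), CANX (chr5:179125764-179125812, plus strand) and XBP1 (chr22:29196576-29196624, minus strand) with ERSE, and HYOU1 (chr11:118928076-118928116, minus strand) with ERSE-II.
HSP90B1 ERSE: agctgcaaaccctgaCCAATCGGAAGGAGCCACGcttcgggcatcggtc
CALR ERSE: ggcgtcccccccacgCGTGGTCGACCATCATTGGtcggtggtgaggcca
CANX ERSE: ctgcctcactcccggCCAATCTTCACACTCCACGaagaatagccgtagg
XBP1 ERSE: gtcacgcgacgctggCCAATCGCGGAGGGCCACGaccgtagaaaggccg
HYOU1 ERSE-II: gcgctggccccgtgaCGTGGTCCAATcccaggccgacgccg
In CRELD2, SDF2L1, CALR and HYOU1 the element reads on the strand opposite to the gene. HSP90B1 held another ERSE and HYOU1 another ERSE-II nearer to the start, and the UPRE of HYOU1 overlapped the ERSE-II shown.

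The distances of the elements from the start overlapped between the called and the uncalled genes. The ERSE of HSPA5 spanned 66 to 48 bases before the RefSeq start and that of CRELD2 80 to 62 bases before it. The ERSE-II of HERPUD1 spanned 117 to 107 bases and that of SDF2L1 188 to 178 bases before the start. Among the uncalled genes, the ERSE of XBP1 spanned 52 to 34 bases and that of CALR 225 to 207 bases before the start. The deposited tables begin some genes elsewhere, and the ERSE of CRELD2, HSP90B1 and CANX and the CARE of CHAC1 lie downstream of the start given there. Of the 9 members whose promoter held ERSE or ERSE-II, 4 were called higher and 5 were not called. Among 17 tested genes outside the members with either element, 2 were called higher and 3 lower. For scale, 40.0% of all tested members were called higher, and 17.8% of all genes were called higher and 18.4% lower. With so few genes, these counts were not read as a result about the elements.

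The KDEL receptors moved in different directions, with KDELR3 and KDELR1 called higher and KDELR2 called lower. All 3 encode membrane proteins that bind escaped ER residents in the Golgi and return them in COPI vesicles. KDELR3 (chr22:38864067-38879452, plus strand) had 20.3, 19.5 and 22.5 CPM in WT replicates 3, 4 and 5 and 31.7, 30.2 and 31.7 CPM in the matching ARID1A-KO replicates. Every ARID1A-KO sample was above every WT sample. The log2 fold change was 0.59 (SE of 0.08 and adjusted p = 0.000369), a 1.5-fold higher mean, and the adjusted p stayed at or under 0.00284 with any sample left out.

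KDELR1 (chr19:48885827-48894810, minus strand) had 151, 145 and 169 CPM in WT and 183, 182 and 186 CPM in ARID1A-KO replicates. The genotypes did not overlap, and the log2 fold change was 0.24 (SE of 0.07 and adjusted p = 0.0194). With WT replicate 3, WT replicate 4, ARID1A-KO replicate 3 or ARID1A-KO replicate 4 left out, its adjusted p was 0.0825, 0.0642, 0.0528 and 0.0596. KDELR2 (chr7:6485584-6523873, minus strand) had 460.3, 447 and 449 CPM in WT and 409, 387 and 373 CPM in ARID1A-KO replicates. Here each ARID1A-KO sample was below each WT sample, and the log2 fold change was -0.22 (SE of 0.06 and adjusted p = 0.0215). Its adjusted p was 0.0596 without WT replicate 3 and 0.0926 without ARID1A-KO replicate 4. KDELR2 overlaps DAGLB on the same strand, whose count came to 32.2% of that of KDELR2, so counting by strand does not keep their shared stretch apart.

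Per length, KDELR2 was the most abundant receptor and KDELR3 the least in each sample. The deposited TPM of KDELR2 was 498 ± 15.6 in WT and 434 ± 11.2 in ARID1A-KO samples (SD, n = 3 each). For KDELR1 it was 303 ± 21.0 and 363 ± 12.3 TPM, and for KDELR3 it was 47.3 ± 3.09 and 71.9 ± 3.10 TPM. The sum of the receptors was 849 ± 26.6 TPM in WT and 869 ± 13.9 TPM in ARID1A-KO samples, with overlapping ranges. KDELR3 made up 5.57% ± 0.235 of the sum in WT and 8.28% ± 0.240 in ARID1A-KO samples, KDELR1 35.7% ± 1.69 and 41.8% ± 1.11, and KDELR2 58.8% ± 1.92 and 49.96% ± 1.296. For each receptor, the shares in ARID1A-KO samples lay outside the range of those in WT samples. An exact permutation test of 3 samples against 3 cannot give a p below 0.1, so these shares are given without a test.

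**Figure D2:**
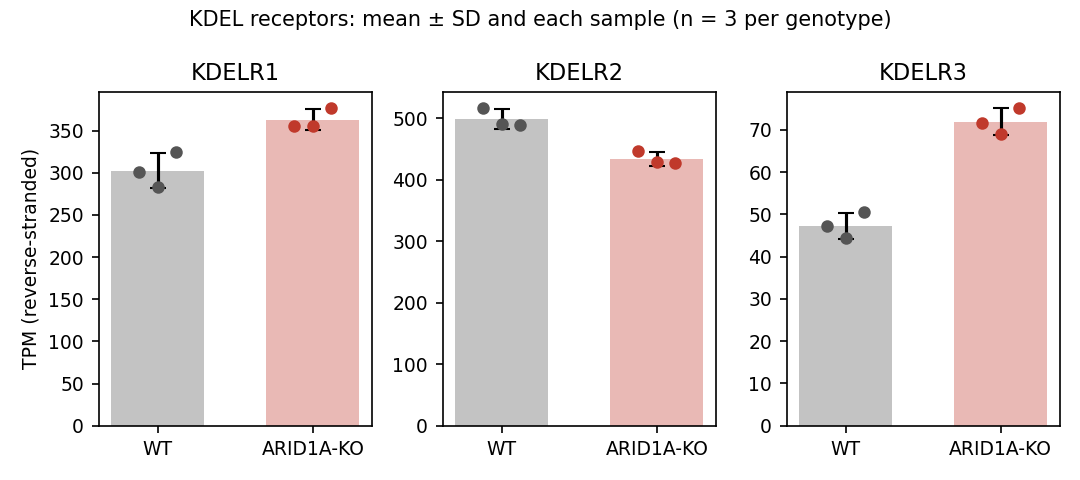
TPM of the KDEL receptors (y axis, from 0, on a separate scale for each gene) in WT and ARID1A-KO samples. Bars are means, error bars are the SD of 3 samples and points are samples. KDELR1 and KDELR3 lie higher and KDELR2 lies lower in every ARID1A-KO sample.

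KDELR3 was the member whose promoter held an AsiSI site, at the start of the RefSeq gene, together with a UPRE. Both elements are shown because the site is cut when AsiSI is induced, which was not done in these samples.
KDELR3 UPRE (chr22:38864040-38864077, plus strand): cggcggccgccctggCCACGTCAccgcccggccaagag
KDELR3 AsiSI site (chr22:38864086-38864123, plus strand): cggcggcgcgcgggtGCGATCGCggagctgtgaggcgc
The UPRE reads on the strand opposite to the gene and spans 46 to 39 bases before the RefSeq start. The 32 members with a RefSeq promoter were also searched within 10 kb of their start in the deposited tables. AsiSI sites were found there for HERPUD1 (449 bp downstream), ATF4 (4047 bp downstream) and DERL2 (96 bp upstream), besides KDELR3. The authors list the KDELR3 and DERL2 sites among their breaks, the latter under MIS12, and not those near HERPUD1 and ATF4. KDELR2, PDIA3, DERL1 and DERL3 were not searched. HERPUD1 was called higher, and ATF4 and DERL2 were not called.

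Among the ER chaperones and cofactors, 4 of 11 were called higher, 1 was called lower and 6 were not called. SDF2L1, which acts with chaperone complexes of the ER lumen, had 36.4, 31.7 and 45.4 CPM in WT and 56.9, 63.4 and 70.4 CPM in ARID1A-KO replicates. All ARID1A-KO samples were above all WT samples, with a log2 fold change of 0.75 (SE of 0.13 and adjusted p = 0.00175). HSPA5 encodes BiP, the main ER chaperone of the HSP70 family, which also keeps the stress sensors inactive. It had 724, 602 and 824 CPM in WT and 980.1, 961 and 816 CPM in ARID1A-KO replicates, so that ARID1A-KO replicate 5 fell inside the WT range. The log2 fold change was 0.36 (SE of 0.12 and adjusted p = 0.0382). It was no longer called without WT replicate 3, WT replicate 4, ARID1A-KO replicate 3 or ARID1A-KO replicate 4, at adjusted p-values of 0.104, 0.095, 0.11 and 0.117.

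MANF, a secreted and ER-resident protein that binds BiP, rose from 70.7 ± 10.7 to 91.2 ± 6.88 CPM (n = 3 each, log2 fold change 0.37, SE 0.11, adjusted p = 0.0239). Leaving out WT replicate 3, WT replicate 4, ARID1A-KO replicate 3 or ARID1A-KO replicate 4 gave it an adjusted p of 0.0829, 0.0539, 0.0808 and 0.0673. CRELD2, an ER protein with disulfide isomerase activity, rose from 47.2 ± 4.50 to 58.3 ± 5.58 CPM (n = 3 each, log2 fold change 0.30, SE 0.09, adjusted p = 0.030). CRELD2 was not called when WT replicate 3 or 5 (adjusted p 0.112 and 0.0722) or ARID1A-KO replicate 3 or 4 (adjusted p 0.0925 and 0.117) was left out. Both genes were higher in every ARID1A-KO than in any WT sample.

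DNAJC3 (chr13:96329393-96447243, plus strand) encodes P58IPK, a BiP cochaperone that also restrains PERK, and was the chaperone gene called lower. It had 26.2, 24.2 and 26.1 CPM in WT and 18.0, 17.0 and 15.7 CPM in ARID1A-KO replicates. The genotypes lay apart, and the log2 fold change was -0.60 (SE of 0.08 and adjusted p = 0.000450). The 24 other tested genes with a start within 5 Mb had a median change of -1.02 on the log2 scale. With this regional value taken off, the log2 fold change of DNAJC3 turned to 0.43 (adjusted p = 0.00367), so that the gene was lower than in WT cells but less so than its neighbours. Over all alternatives its adjusted p ranged from 7.07e-09 to 0.00367. The part of the region in the lower level was not tested.

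HSP90B1 (GRP94), HYOU1, CALR, CANX, DNAJB9 and DNAJB11, which encode other lumenal and membrane chaperones and BiP cochaperones, were not called. Their log2 fold changes ranged from -0.14 for CALR to 0.21 for DNAJB9. DNAJB9 had 13.3, 12.6 and 13.2 CPM in WT and 14.7, 14.6 and 15.9 CPM in ARID1A-KO replicates, without overlap, and its adjusted p was 0.0721. DNAJB11 was also without overlap, at 124 ± 7.23 CPM in WT and 116 ± 0.722 CPM in ARID1A-KO samples (n = 3 each, adjusted p = 0.254). CALR, the lectin chaperone calreticulin, had the highest level of all members per length, at 1667 ± 190.3 TPM in WT and 1529 ± 76.3 TPM in ARID1A-KO samples. The next were HSP90B1 at 848 ± 27.3 TPM and HSPA5 at 806 ± 121 TPM in WT samples, a difference within their spread. In ARID1A-KO samples HSPA5, at 1045 ± 77.4 TPM, was above HSP90B1, at 812 ± 104 TPM.

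Of the protein disulfide isomerases, which form and rearrange disulfide bonds, PDIA4 alone was called. It had 97.7, 108 and 118 CPM in WT and 136, 138 and 119.7 CPM in ARID1A-KO replicates, with ARID1A-KO replicate 5 just above the highest WT sample. The log2 fold change was 0.28 (SE of 0.08 and adjusted p = 0.0284). When WT replicate 3, WT replicate 4, ARID1A-KO replicate 3 or ARID1A-KO replicate 4 was left out, the adjusted p of PDIA4 was 0.115, 0.0558, 0.0886 and 0.108. PDIA3, which works with the lectin chaperones, had a log2 fold change of 0.11 (adjusted p = 0.273), PDIA6 of 0.02 (adjusted p = 0.897) and P4HB of -0.01 (adjusted p = 0.943). Counts of the pseudogene PDIA3P came to 2.57% of those of PDIA3.

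Of the 6 tested ERAD factors, HERPUD1 and EDEM1 were called higher and 4 were not called. HERPUD1, a membrane scaffold of the degradation complex, had 46.3, 41.6 and 41.7 CPM in WT and 64.7, 61.5 and 55.2 CPM in ARID1A-KO replicates. Its log2 fold change was 0.48 (SE of 0.08 and adjusted p = 0.00128), without overlap of the genotypes. The 66 other tested genes within 5 Mb had a median of 0.29, and with it taken off the log2 fold change of HERPUD1 was 0.19 (adjusted p = 0.0873, the highest over its alternatives, which began at 7.69e-08). The part of the region was not tested. EDEM1, which helps to select misfolded glycoproteins for degradation, had 109.9, 111 and 113 CPM in WT and 134, 134 and 129.7 CPM in ARID1A-KO replicates. This was a log2 fold change of 0.25 (SE of 0.05 and adjusted p = 0.00535), and the samples of each genotype lay close together.

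SYVN1, the ubiquitin ligase HRD1, and its partner SEL1L had log2 fold changes of 0.08 (adjusted p = 0.397) and -0.06 (adjusted p = 0.577). FAU overlaps SYVN1 on the same strand, with a count of 794% of that of SYVN1, so the value of SYVN1 depends on how reads in the shared stretch were assigned. The membrane proteins DERL1 and DERL2 had log2 fold changes of 0.08 (adjusted p = 0.328) and 0.00 (adjusted p = 0.972). DERL3 had 0 counts in all 6 samples, which allows a level of up to 0.0357 to 0.0550 CPM per sample (3 counts, counting error only). HERPUD1 holds a CARE beside its ERSE-II, 176 to 169 bases before the start.
HERPUD1 CARE (chr16:56965863-56965900, plus strand): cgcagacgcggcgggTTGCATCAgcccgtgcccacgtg
CHAC1 CARE (chr15:41245445-41245482, plus strand): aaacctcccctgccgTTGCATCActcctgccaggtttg
In both genes it reads on the strand opposite to the gene, and in CHAC1 it spans 209 to 202 bases before the start.

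Of the sensors, ERN1 was called higher, EIF2AK3 was called lower and ATF6 was not called. ERN1 (IRE1, chr17:62116502-62208179, minus strand), which splices the XBP1 transcript, had 15.4, 17.6 and 15.5 CPM in WT and 25.5, 25.8 and 25.9 CPM in ARID1A-KO replicates. The ARID1A-KO samples lay within a narrow range above all WT samples, and the mean was 1.59-fold higher (log2 fold change 0.67, SE 0.08, adjusted p = 0.000212). With any sample left out, the adjusted p of ERN1 was at most 0.00176. Per length, ERN1 had the lowest mean of the tested members in WT samples, 6.55 ± 0.504 TPM, within the spread of CREB3L1 at 6.77 ± 1.21 TPM, and it had 10.5 ± 0.332 TPM in ARID1A-KO samples.

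EIF2AK3 (PERK, chr2:88856259-88927094, minus strand), which phosphorylates the translation initiation factor eIF2α, had 25.6, 22.1 and 24.1 CPM in WT and 19.9, 20.9 and 20.1 CPM in ARID1A-KO replicates. All ARID1A-KO samples were below all WT samples, with a log2 fold change of -0.24 (SE of 0.08 and adjusted p = 0.040). With WT replicate 3 or 5 left out, the adjusted p was 0.119 and 0.0821, and with ARID1A-KO replicate 3, 4 or 5 left out, it was 0.125, 0.0902 and 0.0779. From counts without regard to strand, the log2 fold change was -0.14 (adjusted p = 0.197), and over all alternatives the adjusted p ranged from 0.0211 to 0.197. Reads on the strand opposite to EIF2AK3 were higher in ARID1A-KO samples, and their part in the unstranded value was not tested. ATF6 had 94.5, 91.3 and 95.1 CPM in WT and 96.4, 91.0 and 91.9 CPM in ARID1A-KO replicates. The ranges overlapped, and the log2 fold change was -0.01 (SE of 0.06 and adjusted p = 0.924).

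Of the 4 transcription factors, DDIT3 was called higher and the others were not called. DDIT3 (CHOP, chr12:57910371-57914300, minus strand), which acts downstream of ATF4 and is known for promoting cell death under lasting stress, had 16.4, 17.3 and 14.5 CPM in WT and 41.8, 39.2 and 28.8 CPM in ARID1A-KO replicates. Every ARID1A-KO sample was above every WT sample, with replicate 5 the lowest of each genotype. The mean was 2.27-fold higher in ARID1A-KO samples (log2 fold change 1.19, SE 0.14, adjusted p = 0.000192), the largest change among the members. The adjusted p was at most 0.00192 with any sample left out. MARS lies on the opposite strand over part of DDIT3, and counts without regard to strand gave a log2 fold change of 1.14.

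ATF4 itself had 382, 440.5 and 326 CPM in WT and 503, 491 and 357 CPM in ARID1A-KO replicates. ARID1A-KO replicate 5 fell inside the WT range, and the log2 fold change was 0.23 (SE of 0.14 and adjusted p = 0.235). Without ARID1A-KO replicate 5, it was called higher at a log2 fold change of 0.38 (adjusted p = 0.0255), and it was also called with the replicate number as a block (adjusted p = 0.0417) and with no filter on low counts (adjusted p = 0.021). Over all alternatives, its adjusted p ranged from 0.021 to 0.565. The fit with no filter also gave far lower adjusted p-values for other genes at nearly the same change, such as HSPA5 (0.000108 against 0.0382). ATF4 is controlled mainly at translation, which transcript counts do not measure. XBP1 had 60.9, 68.9 and 64.3 CPM in WT and 64.7, 65.7 and 56.2 CPM in ARID1A-KO replicates. The samples overlapped, at a log2 fold change of -0.06 (SE of 0.08 and adjusted p = 0.615), and counts per gene do not separate spliced from unspliced XBP1. CREB3L1, a membrane-bound transcription factor of secretory cells, had 6.4, 5.00 and 7.25 CPM in WT and 6.26, 6.15 and 5.81 CPM in ARID1A-KO replicates, a log2 fold change of -0.03 (SE of 0.14 and adjusted p = 0.883).

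**Figure D3:**
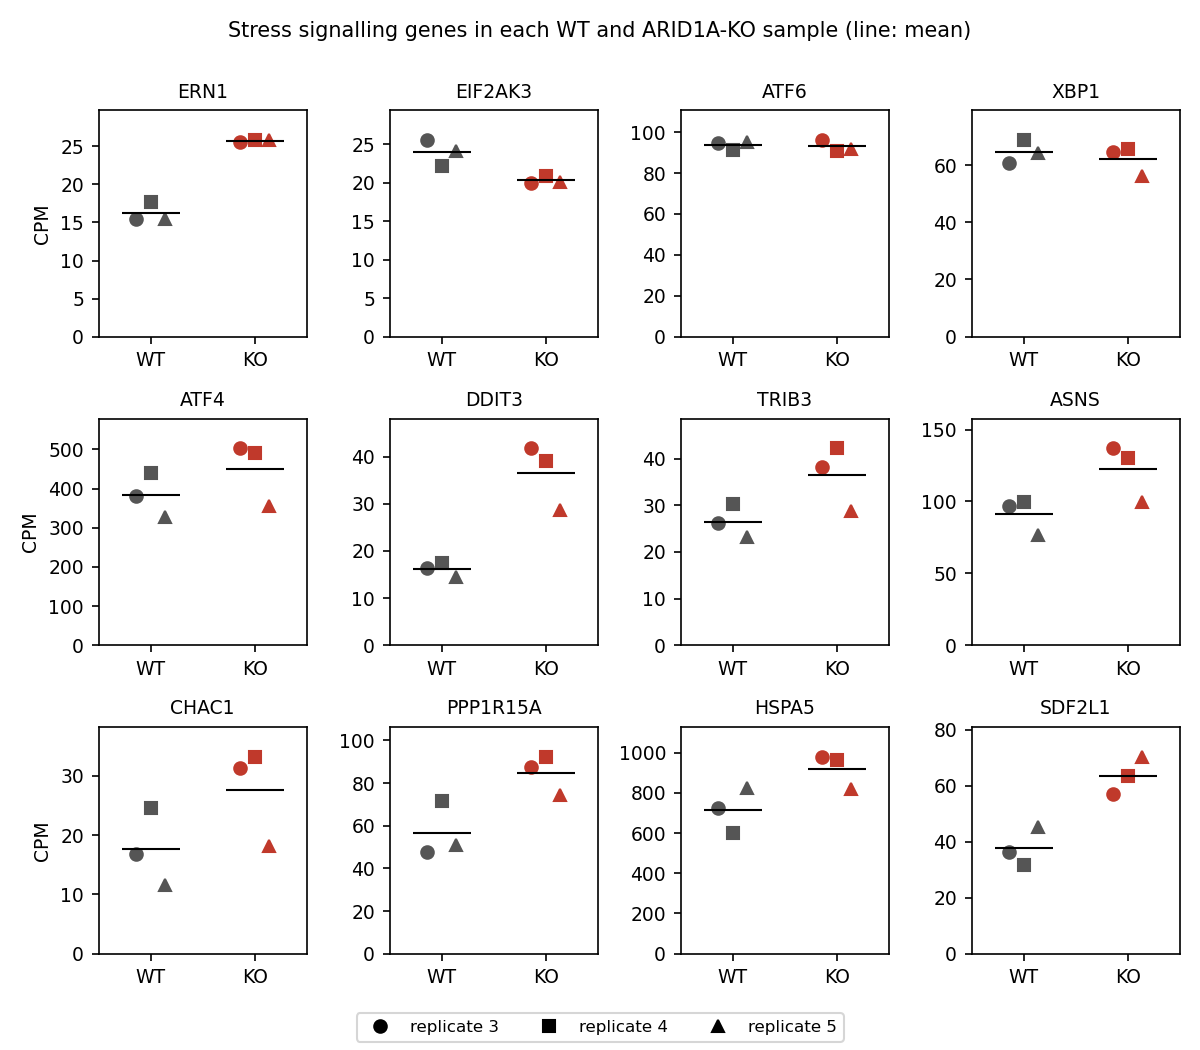
CPM (y axis, from 0, on a separate scale for each gene) of stress signalling genes, HSPA5 and SDF2L1 in each WT and ARID1A-KO (KO) sample. The marker shape gives the replicate number and the line the mean of 3 samples. ERN1, DDIT3, PPP1R15A and SDF2L1 are higher without overlap in ARID1A-KO samples, and EIF2AK3 is lower without overlap. Replicate 5 is the lowest sample of each genotype for ATF4, DDIT3, TRIB3, ASNS and CHAC1.

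Of the 4 targets of the integrated stress response, PPP1R15A, TRIB3 and ASNS were called higher and CHAC1 was not called. Their median log2 fold change was 0.52. PPP1R15A (GADD34), which directs the dephosphorylation of eIF2α, had 47.6, 71.6 and 51.1 CPM in WT and 87.6, 92.4 and 74.2 CPM in ARID1A-KO replicates. The genotypes did not overlap, at a log2 fold change of 0.58 (SE of 0.15 and adjusted p = 0.0133). Its adjusted p was 0.0502 without WT replicate 3 and 0.0596 without WT replicate 5. TRIB3, a pseudokinase induced by ATF4 and CHOP, had 26.1, 30.2 and 23.2 CPM in WT and 38.3, 42.3 and 28.7 CPM in ARID1A-KO replicates. Its ranges overlapped at ARID1A-KO replicate 5, and the log2 fold change was 0.46 (SE of 0.14 and adjusted p = 0.0345). It was not called without WT replicate 3, WT replicate 5, ARID1A-KO replicate 3 or ARID1A-KO replicate 4, at adjusted p-values of 0.0969, 0.123, 0.0962 and 0.13.

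ASNS, the asparagine synthetase, had 97.0, 99.8 and 76.5 CPM in WT and 137, 130.2 and 99.5 CPM in ARID1A-KO replicates. ARID1A-KO replicate 5 was again inside the WT range, and the log2 fold change was 0.42 (SE of 0.13 and adjusted p = 0.0330). The call of ASNS was lost with WT replicate 3 or 5 (adjusted p 0.058 and 0.113) or ARID1A-KO replicate 3 or 4 (adjusted p 0.112 and 0.103) left out. CHAC1, which degrades glutathione, had 16.8, 24.6 and 11.6 CPM in WT and 31.4, 33.2 and 18.2 CPM in ARID1A-KO replicates. With replicates so far apart, the log2 fold change of 0.64 (SE 0.28) had an adjusted p of 0.103. CHAC1 was called higher without WT replicate 4 (adjusted p = 0.0165) and without ARID1A-KO replicate 5 (adjusted p = 0.0212). It was also called with the replicate number as a block (adjusted p = 0.000769) and with no filter on low counts (adjusted p = 8.48e-09). The fit with no filter tested 36390 genes and lowered adjusted p-values far at nearly the same change, for ARID1A from 9.66e-08 to 2.42e-172. Its value for CHAC1 is therefore not comparable with those of the other settings. The highest adjusted p of CHAC1 over all alternatives was 0.286.

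ARID1A-KO replicate 5 was the lowest sample of its genotype for 10 of the 14 members called higher (71.4%). It was also the lowest ARID1A-KO sample for 40.3% of all genes called higher. Over all 35 tested members it was the lowest for 24 (68.6%), against 38.8% of all genes tested. This sample also had the largest total count, 84088708, and the part of depth in its levels was not tested. Without it, 16 members were called higher and 2 lower, and the median log2 fold change of the members was 0.16. WT replicate 4 was the lowest WT sample for 51.4% of the tested members, against 34.5% of all genes tested, and ARID1A-KO replicate 3 was the highest ARID1A-KO sample for 51.4%, against 31.3%.

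The members lie on many chromosomes, and their changes were set beside those of their neighbours, the other tested genes with a start within 5 Mb. CALR and DNAJB11 lay among neighbours with medians of -0.33 and -0.23. KDELR1 lay among neighbours with a median of 0.14 and PPP1R15A, within 5 Mb of it on chromosome 19, among neighbours with a median of 0.16. With the neighbours' median taken off each gene, 9 members were called higher, DNAJC3 among them, and 2 lower. ASNS, HERPUD1, KDELR1, MANF, PPP1R15A and TRIB3 were then no longer called. DDIT3, ERN1, KDELR3 and SDF2L1 had neighbours with medians of 0.014, 0.022, 0.035 and 0.076, far from their own changes.

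**Figure D4:**
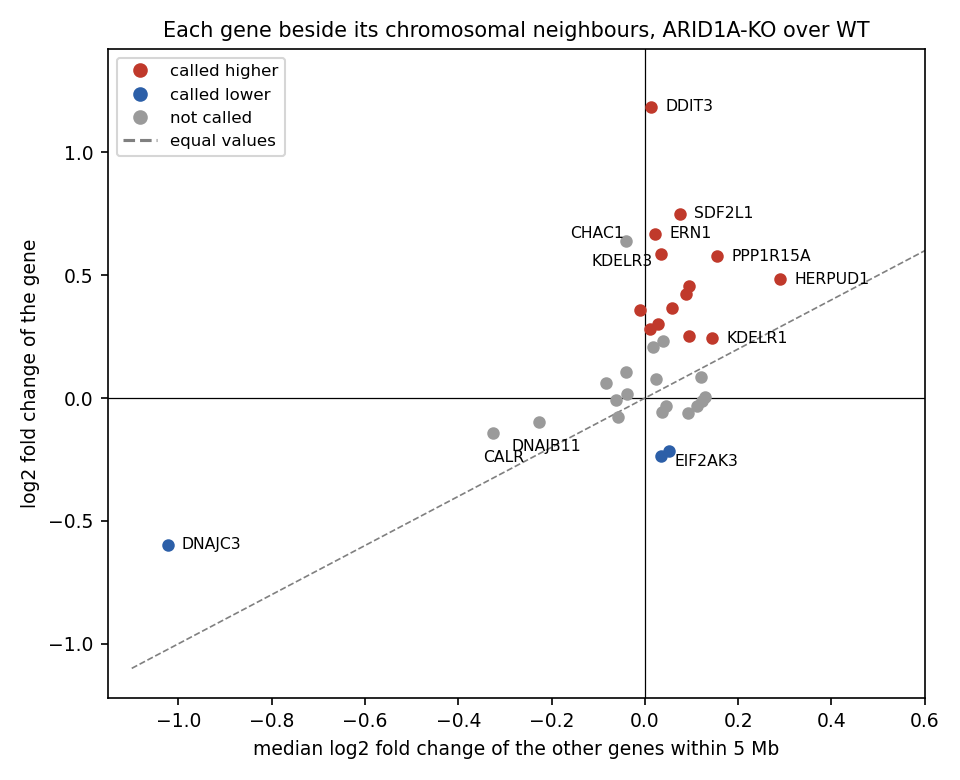
Log2 fold change of each tested member (y axis) against the median log2 fold change of the other tested genes with a start within 5 Mb (x axis), ARID1A-KO over WT. Red points were called higher, blue points lower and grey points were not called, and the dashed line marks equal values. DNAJC3 lies far to the left at a neighbour median of -1.02, while DDIT3 stands at 0.014 with its own change of 1.19.

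Other genes of these pathways were taken from 7 further lists of 203 genes, of which 200 were tested. Of these, 39 were called higher (19.5%) and 42 lower (21.0%), against 17.8% and 18.4% of all genes, with a median log2 fold change of 0.011. Other ERAD factors had 8 of 23 called higher and 2 lower (median 0.11), and other ATF4 targets had 12 of 38 higher and 4 lower (median 0.14). Translocon, signal peptidase and oligosaccharyltransferase genes had 4 of 32 higher and 11 lower (median -0.075). COPI and retrograde transport genes, whose vesicles carry the KDEL receptors, had 4 of 34 higher and 9 lower (median -0.069). Other folding and redox enzymes had 7 of 36 higher and 8 lower (median 0.029), other sensors and regulators 3 of 21 higher and 6 lower (median -0.0086), and cytosolic and mitochondrial chaperones 1 of 16 higher and 2 lower (median -0.078).

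Among the ATF4 targets, CARS rose by 0.75 (adjusted p = 0.000394), PCK2 by 0.74 (adjusted p = 0.00243) and SESN2 by 0.66 (adjusted p = 0.000656) on the log2 scale, while NUPR1, a stress-induced chromatin protein, fell from 12.1 ± 1.62 to 4.06 ± 0.637 CPM (n = 3 each, log2 fold change -1.57, adjusted p = 5.59e-05). EDEM2 (0.50, adjusted p = 0.000609), JKAMP (0.40, adjusted p = 0.00156) and FAM8A1 (0.37, adjusted p = 0.0215) were ERAD factors that rose on the log2 scale, and UBE2J1, an ubiquitin-conjugating enzyme, fell (-0.45, adjusted p = 0.000841). FAM8A1 was not called without WT replicate 4, WT replicate 5, ARID1A-KO replicate 3 or ARID1A-KO replicate 4 (adjusted p 0.0607, 0.064, 0.0628 and 0.0688). In COPI and retrograde transport, USE1 (-0.99, adjusted p = 1.74e-05), ERGIC1 (-0.74, adjusted p = 0.000134) and the coat subunit COPB2 (-0.61, adjusted p = 7.12e-05) fell, and GBF1, which activates ARF1, rose (0.67, adjusted p = 0.000132).

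At the translocon, SSR3 fell from 421 ± 84.1 to 194 ± 26.9 CPM (n = 3 each, log2 fold change -1.12, adjusted p = 0.000388), and SEC62 (-0.62, adjusted p = 0.000176), SEC61A1 (-0.54, adjusted p = 0.000116) and SEC61A2 (-0.45, adjusted p = 0.0124) fell as well. UGGT2 (-0.87, adjusted p = 3.03e-05), FKBP9 (-0.58, adjusted p = 0.00196), FKBP7 (-0.47, adjusted p = 0.0103) and PRKCSH (-0.45, adjusted p = 0.00343) fell among the folding enzymes. Of the regulators, EIF2B2 rose (0.60, adjusted p = 0.000226), and CREB3L2 (-0.61, adjusted p = 0.000487), MBTPS1 (-0.36, adjusted p = 0.00121) and EIF2AK2 (-0.35, adjusted p = 0.0116) fell. BAG3 rose (0.47, adjusted p = 0.00535) and DNAJB1 (-0.75, adjusted p = 0.000342) and HSPE1 (-0.25, adjusted p = 0.0423) fell among the chaperones outside the ER. Without ARID1A-KO replicate 4, FKBP7, SEC61A2 and EIF2AK2 had adjusted p-values of 0.0501, 0.0541 and 0.0517. With the offset on exonic length, EIF2AK2 was at -0.18 (adjusted p = 0.12). HSPE1 was not called without WT replicate 3, 4 or 5 (adjusted p 0.0959, 0.0746 and 0.0794) or without ARID1A-KO replicate 4 or 5 (adjusted p 0.113 and 0.0873). With the neighbours' median taken off, UGGT2, which is a neighbour of DNAJC3, turned to 0.15 (adjusted p = 0.139), and PRKCSH, SEC61A1, SEC62, COPB2, BAG3 and HSPE1 were no longer called (adjusted p 0.209, 0.126, 0.3, 0.0625, 0.794 and 0.0871).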

How the data were processed

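The samples, 3 WT and 3 ARID1A-KO, were grouped by their labels. Libraries were stranded and sequenced as 100 bp read pairs. The labels give polyA RNA and the protocols a total RNA kit. The authors aligned reads with STAR to GRCh37 and used featureCounts, and the counts they deposited for each gene are whole numbers without normalization. The authors also deposited TPM, scaled to the sum over autosomal genes. Reverse-stranded counts were used, since forward-stranded counts came to 5.83% to 6.15% of them.

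After filterByExpr and TMM normalization, genotypes were compared with edgeR's quasi-likelihood test (edgeR 4.0.16, R 4.3.3, Benjamini-Hochberg adjustment over 19599 genes, no covariate). The common biological coefficient of variation was 0.111, and pairs of replicates differed by more than sampling noise (chi-square per gene at least 7.57). The fit was tested on simulated counts in which randomly drawn genes were changed. It recovered 38 of 67 genes changed 1.5-fold, 47 of 67 changed 2-fold and 64 of 66 changed 4-fold. Of its calls 5.10% were false, and of those of DESeq2 11.0%. A gene that was not called can therefore still have changed. Promoters were searched in Python 3.11.15.

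Members, lists and tests were chosen with earlier results of these data known. Given with every sample are the receptors, sensors, transcription factors and other called members with an absolute log2 fold change of at least 0.5, and after their values were seen also other members. From each further list, up to 4 called genes with the largest change, a mean log2 CPM over 1 and no overlap are named. PECAM1 matched no gene.

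Alternatives were DESeq2 1.42.0, RLE normalization, no filter or at least 10 counts in every sample, unstranded counts, the replicate number as a block, each sample left out, an offset on exonic length (loess, span 0.3), the median change of neighbours within 5 Mb taken off, and an adjusted p under 0.01.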

Additional observations from a re-analysis of the deposited data

Results flagged for a closer look

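Reads on the strand opposite to a member were not counted for it in the comparisons of the report, apart from the alternative with unstranded counts. They were higher in all 3 ARID1A-KO than in all 3 WT samples for EIF2AK3 and SYVN1, 2 of 20 members (10%) with at least 10 such reads in each ARID1A-KO sample. By the same criterion, which was set on the ARID1A-KO samples, this held for 24.7% of 4982 tested genes. On the strand opposite to EIF2AK3, the mean was 0.199 ± 0.0456 CPM in WT and 1.498 ± 0.0397 CPM in ARID1A-KO samples (n = 3 each), 7.55-fold higher. Both genes were chosen because the genotypes did not overlap, so no test is given. The long noncoding RNA gene AC104134.2 (chr2:88838238-88875128, plus strand) overlaps EIF2AK3 on this strand and was looked up after these values were seen. It had 11, 4 and 11 counts in WT and 92, 58 and 85 counts in ARID1A-KO replicates 3, 4 and 5, a log2 fold change of 3.05. AC104134.2 shares this strand and part of this stretch with the reads that led to it, so no test is given for it either. AC062029.1 (chr2:88927057-88931339, plus strand) overlaps EIF2AK3 at the start of that gene. Its CPM ran from 3.88 to 4.21 in WT and from 4.63 to 5.30 in ARID1A-KO samples, without overlap. The log2 fold change of AC062029.1 was 0.27 (adjusted p = 0.105 by edgeR's quasi-likelihood test).

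On the strand opposite to SYVN1, the mean was 2.79 ± 0.176 CPM in WT and 3.24 ± 0.137 CPM in ARID1A-KO samples (n = 3 each), 1.16-fold higher. MRPL49 overlaps SYVN1 on that strand and had a log2 fold change of 0.08 (adjusted p = 0.281).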

How the results depend on the processing

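The members called higher numbered 9 with the offset on exonic length, where KDELR1, HSPA5, MANF, PDIA4 and TRIB3 were not called (adjusted p 0.0857, 0.0544, 0.0603, 0.0652 and 0.0648), 9 with the change of neighbours taken off and 6 at an adjusted p under 0.01, and 6 to 16 with 1 sample left out. Those called lower numbered 1 at an adjusted p under 0.01, and 1 to 3 with 1 sample left out. Of other pathway genes, 20 were called higher and 25 lower at an adjusted p under 0.01, and 25 lower with neighbours taken off. With 1 sample left out these numbered 23 to 47 higher and 26 to 38 lower. The members' median log2 fold change was 0.16 with neighbours taken off and 0.088 to 0.16 with 1 sample left out. With neighbours taken off, DNAJC3 turned to 0.43 and UGGT2 to 0.15. ARID1A kept its direction and call under all alternatives. DESeq2 called 14 members higher and 3 lower, and with no filter on low counts these numbered 16 and 2. The causes of these differences between settings were not tested.

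With the replicate number as a block, 16 members were called higher, adding ATF4 (adjusted p = 0.0417) and CHAC1 (adjusted p = 0.000769), and 3 lower. No other call of a member changed. Deviations of same-numbered samples had correlations across genes of -0.17, 0.25 and 0.17. Those of differently numbered samples ran from -0.41 to 0.29, a range that holds the same-numbered values, so the numbers were not taken to pair the samples. At these depths counting error is small for all tested members, and DERL3 alone had no counts.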
